A study of Mus musculus with 4 samples.

Results

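Chemokines and their receptors were described in the small intestine of mice with and without cystic fibrosis (CF), and with and without the laxative drug lubiprostone. The genes were taken by name: every probe set listed for 1 gene whose symbol is Ccl, Cxcl, Cx3cl, Ccr, Cxcr or Cx3cr followed by a digit, with Ccl5 left out. This gave 47 genes on 75 probe sets, of 18194 genes on 34958 probe sets that are listed for 1 gene. Chemokines were 31 of the genes, on 49 probe sets, and receptors were 16, on 26 probe sets. A further 4 probe sets are listed for several near-identical genes, some of them chemokines, and are described apart.

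RNA of the entire small intestine, with the mesentery trimmed away, was pooled by group and each pool was hybridized to 1 expression array. WT mice were wild type littermates of the CF mice, which carry the Cftr null allele cftr-tm1Unc and so lack the CFTR chloride channel in every tissue, all on a C57BL/6 background. From weaning on, all mice of the 4 groups received the liquid diet Peptamen, which keeps CF mice from dying of intestinal obstruction. The WT + lubiprostone and CF + lubiprostone mice were gavaged once a day with lubiprostone in this diet, at 10 µg/kg/day for 2 weeks, and the WT control and CF control mice are labelled as untreated. The methods give 8 mice in the untreated and 7 in the treated WT pool, and 10 in the untreated and 8 in the treated CF pool, whereas the description of the series gives 10 for WT control. The ages of the mice are not given in the sources used here, nor is it stated whether the controls were gavaged. With 1 array per group there was no replicate check, no spread between mice and no test, so every fold below is a ratio between pools.

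The values are signals, that is intensities without a physical unit, each of which summarizes the probes of 1 probe set. The arrays were scaled alike, and the medians of the WT arrays were 123.8 for control and 122.5 for lubiprostone, those of the CF arrays 109.4 and 119.6. A signal below its array's median is called dim here. For a ratio a dim signal was set to that median and the fold is then written as "at least", and a probe set was compared only when it reached the median on at least 1 of the 2 arrays. The fold of a gene with several compared probe sets is the average of their log2 ratios, so it need not equal the ratio of the signals of a single one. Levels were not compared between probe sets, because probes differ in brightness. Cftr, the targeted gene, had signals of 2505, 2226, 620.2 and 714.6 on its brighter probe set in that same order of groups, which is kept for all signals below. The pools also differed in Xist, a transcript of female cells, at 1036, 3683, 2510 and 4062 on its brightest probe set, so that sex, genotype and treatment cannot be told apart across the 4 pools. The treated pools were the nearest to each other in Xist. Eif2s3y, a second sex-linked gene, had 1242, 829, 884 and 805 on its brighter probe set. Fabp1, Fabp2, Alpi, Vil1 and Apoa1, markers of absorptive cells of the villus, reached the median on all 4 arrays. In such bulk samples fewer cells of a type and less RNA per cell cannot be told apart.

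Chemokines are small secreted proteins that draw cells along their gradients, and they signal through receptors of the G protein-coupled family on the cells they attract. In the small intestine some are made steadily by the epithelium and keep lymphocytes at the mucosa, such as Ccl25 for cells with Ccr9 and Ccl28 for plasma cells with Ccr10. Others are induced by microbes or cytokines, such as Cxcl1, Cxcl2 and Cxcl5, which attract neutrophils through Cxcr2, and Cxcl9, Cxcl10 and Cxcl11, which attract activated T cells through Cxcr3. Ccl20, made by the epithelium over lymphoid follicles, attracts cells with Ccr6.

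Most of the epithelial gut ligands were bright enough to read, and 7 of the 16 receptors were not. A probe set at or above the median on all 4 arrays was found for 15 of the 31 chemokines and 6 of the 16 receptors. On 1 to 3 of the arrays the same held for 9 chemokines and 3 receptors. The other 14 genes were dim on every array: the chemokines Ccl1, Ccl12, Ccl2, Ccl3, Ccl7, Cxcl15 and Cxcl3, and the receptors Ccr1l1, Ccr3, Ccr4, Ccr7, Ccr8, Cxcr2 and Cxcr5. On the brightest probe set of each gene, 33 of the 47 genes reached the median on 1 or more arrays, as did 12245 of all 18194 genes, a similar share. The number of dim genes is thus not particular to this family. The 75th percentile of an array was reached by 14 chemokines and by 0 receptors. For that count, and for those on all 4 or on 1 to 3 arrays, the shares of all genes were not counted. Of the 75 probe sets, 32 were at or above the median on all arrays and 28 on none.

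In CF control compared with WT control, the ligands Ccl20 and Ccl8 were higher. Ccl20 was 2.74-fold and Ccl8, a ligand of Ccr8 in the mouse, 2.76-fold higher. These were the only 2 of 31 compared genes at least 2-fold higher, where the share among all 11806 genes was 1.5%. At least 2-fold lower were 0, where the share among all genes was 2.61%, with Cxcl11 just short of it at least 1.99-fold lower. At 3-fold, the threshold of the study, there were 0 in either direction, where the shares among all genes were 0.508% higher and 0.923% lower. The 31 genes had a median log2 ratio of 0.16, where all genes had -0.03, and 18 of the 31 were above a ratio of 1, as were 46.2% of all genes. With the filter and the lowest value at the 75th percentile in place of the median, 12 genes could be compared and 0 were 2-fold higher, Ccl20 at 1.19-fold and Ccl8 at 1.02-fold.

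In WT + lubiprostone compared with WT control, 0 of 28 compared genes were at least 2-fold apart, and so 0 were 3-fold apart. Among all 11691 genes 0.257% were at least 2-fold higher and 0.359% lower, and 0.0428% and 0.163% at 3-fold, so a count of 0 among 28 says little about these genes. The widest ratios were those of Ccl20, 1.86-fold higher, Cxcl16, 1.61-fold higher, and Cxcl10, 1.61-fold lower. The median log2 ratio was 0.01 where all genes had -0.00.

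In CF + lubiprostone compared with CF control, Ccl20, Cxcl2 and Cxcl11 were higher. Ccl20 was 3.33-fold, Cxcl2, a neutrophil attractant, 2.20-fold and Cxcl11, an interferon-induced ligand, at least 2.23-fold higher. They were 3 of 32 compared genes, where the share among all 11795 genes was 1.27%, and 1 of them, Ccl20, passed 3-fold, where the share was 0.203%. At least 2-fold lower were 0, where the share among all genes was 0.873% (0.212% at 3-fold), with Ccl24 nearest at 1.91-fold lower. The median log2 ratio was 0.21 where all genes had 0.02, and 21 of the 32 genes were above 1, as were 52.9% of all genes. With the filter at the 75th percentile 12 genes could be compared, Cxcl2 and Cxcl11 not among them, and Ccl20 and Cxcl9 were 2-fold higher. With the arrays scaled to a common median, Cxcl2 and Cxcl11 passed 2-fold narrowly, at log2 ratios of 1.01 and 1.03.

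In CF + lubiprostone compared with WT + lubiprostone, 5 of 31 compared genes were at least 2-fold higher, where the share among all 11792 genes was 1.63%. They were Ccl20 at 4.90-fold, Cxcl2 at least 3.87-fold, Cxcl10 at 3.47-fold, Cxcl9 at least 2.86-fold and Ccl8 at 2.19-fold. Past 3-fold were 3 of them, where the share among all genes was 0.526%. At least 2-fold lower were 0, where the share was 1.72% (0.517% at 3-fold), and Cxcl14 came nearest at 1.83-fold lower. The median log2 ratio was 0.19 where all genes had -0.00, and 23 of the 31 were above 1, as were 49.7% of all genes. With the filter at the 75th percentile 2 genes, Ccl20 and Cxcl9, of 13 were 2-fold higher, and Cxcl10 was 1.46-fold higher. Pools of the same treatment or genotype are called the untreated, treated, WT or CF pools below. All 6 genes named in these counts were chemokines, and no receptor was 2-fold apart in any of the 4 comparisons.

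Each comparison shares an array with 2 of the others. The genotype comparison of the untreated pools and that of the treated pools share none. Of 29 genes compared in both, 16 were above 1 in both, 6 were below 1 in both and 7 were on opposite sides. Of all genes 46.2% were above 1 in the former and 49.7% in the latter. Their split over both comparisons was not counted, so that of the 29 cannot be read as particular to these genes. Ccl20 and Ccl8 were past 2-fold in both.

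**Figure D1:**
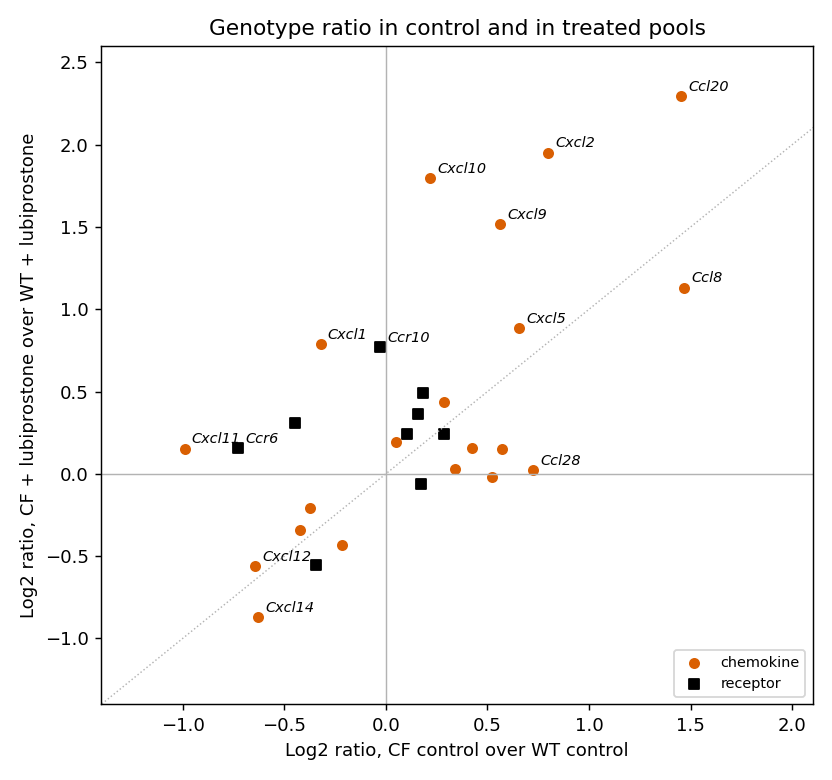
Log2 ratio of CF control over WT control (horizontal axis) and of CF + lubiprostone over WT + lubiprostone (vertical axis) for the 29 chemokine (circles) and receptor (squares) genes compared in both, 1 point per gene, with the line of equal ratios dotted. Ccl20 and Ccl8 lie past a log2 ratio of 1 on both axes, and Cxcl2, Cxcl10 and Cxcl9 only on the vertical one.

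The 6 genes past 2-fold had their signals on the 4 arrays as follows. For Ccl20 they were 209.8 and 390.4 in the untreated and treated WT pools, and 574 and 1913 in the untreated and treated CF pools. It was higher in each treated pool than in the untreated pool of its genotype, and higher in each CF pool than in either WT pool. Ccl8 had 178, 186, 493 and 407, high in both CF pools with the treated one 1.21-fold below the control.

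Cxcl2 had dim signals of 76.6 and 33.8 in the WT pools, and 215 and 474 in the CF pools. Cxcl10 had 321, 199, 373 and 690.5, lowest in WT + lubiprostone and highest in CF + lubiprostone. Cxcl9 had 382, 406, 598 and 1210 on its brighter probe set and 166, a dim 102, 232 and 337 on the other, and both were highest in CF + lubiprostone. Cxcl11 stood apart from these, with 217, 220 (219.9), a dim 73.0 and 244, so that the CF control pool alone was low and the other 3 were alike. Its other probe set was dim on all arrays, from 13.7 to 89.2.

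**Figure D2:**
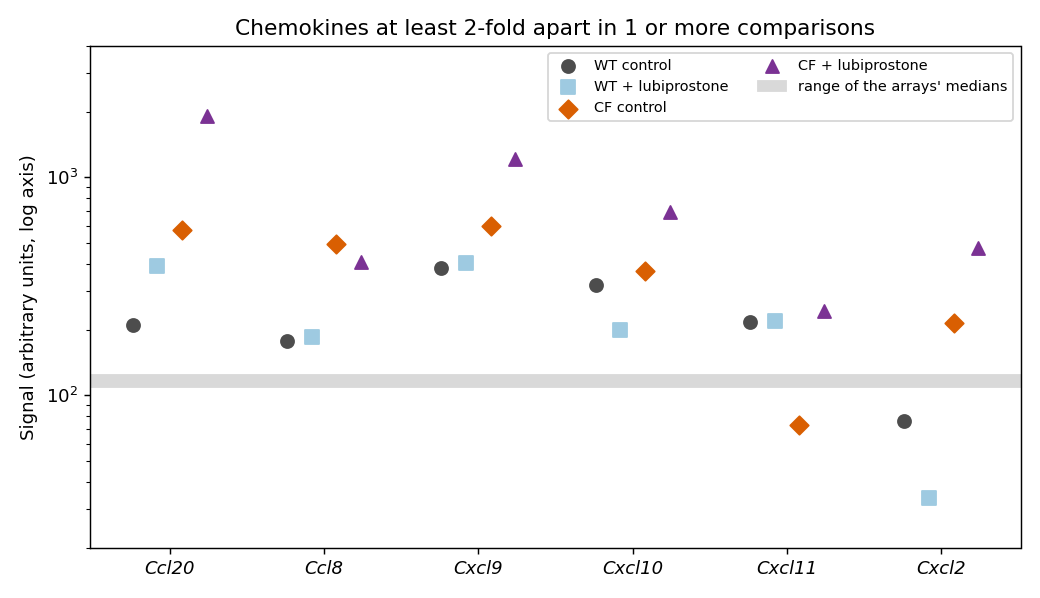
Signal of the brightest probe set (arbitrary units, log axis) for the 6 chemokines at least 2-fold apart in 1 or more comparisons, 1 symbol per pool, with the range of the array medians as a grey band. Ccl20 runs from 209.8 in WT control to 1913 in CF + lubiprostone, whereas Cxcl11 is below the band only in CF control.

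Across the 33 genes with a probe set at the median of some array, the CF + lubiprostone array was the highest of the 4 most often. It was highest for 16 genes (48.5%) on their brightest probe set, against 27.6% of 12245 genes overall. They were the ligands Ccl17, Ccl20, Ccl28, Ccl4, Cxcl1, Cxcl10, Cxcl11, Cxcl17, Cxcl2, Cxcl5 and Cxcl9, and the receptors Ccr1, Ccr10, Ccr2, Ccr9 and Cxcr6. Averaged over its 3 probe sets, however, Ccl28 was 1.48-fold lower with lubiprostone between the CF pools. WT control was highest for 7, among them Cxcl12, Cxcl14 and Ccr6, CF control for 6, among them Ccl8, Ccl9 and Ccl24, and WT + lubiprostone for 4, Ccl25, Cx3cr1, Cxcl13 and Cxcl16. A gene that reached the median on a single array was nearly bound to be highest there. This held for Ccl17 and Cxcl17 in CF + lubiprostone, Ccl22 in CF control and Ccl27a in WT control. The same filter applied to all genes.

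**Figure D3:**
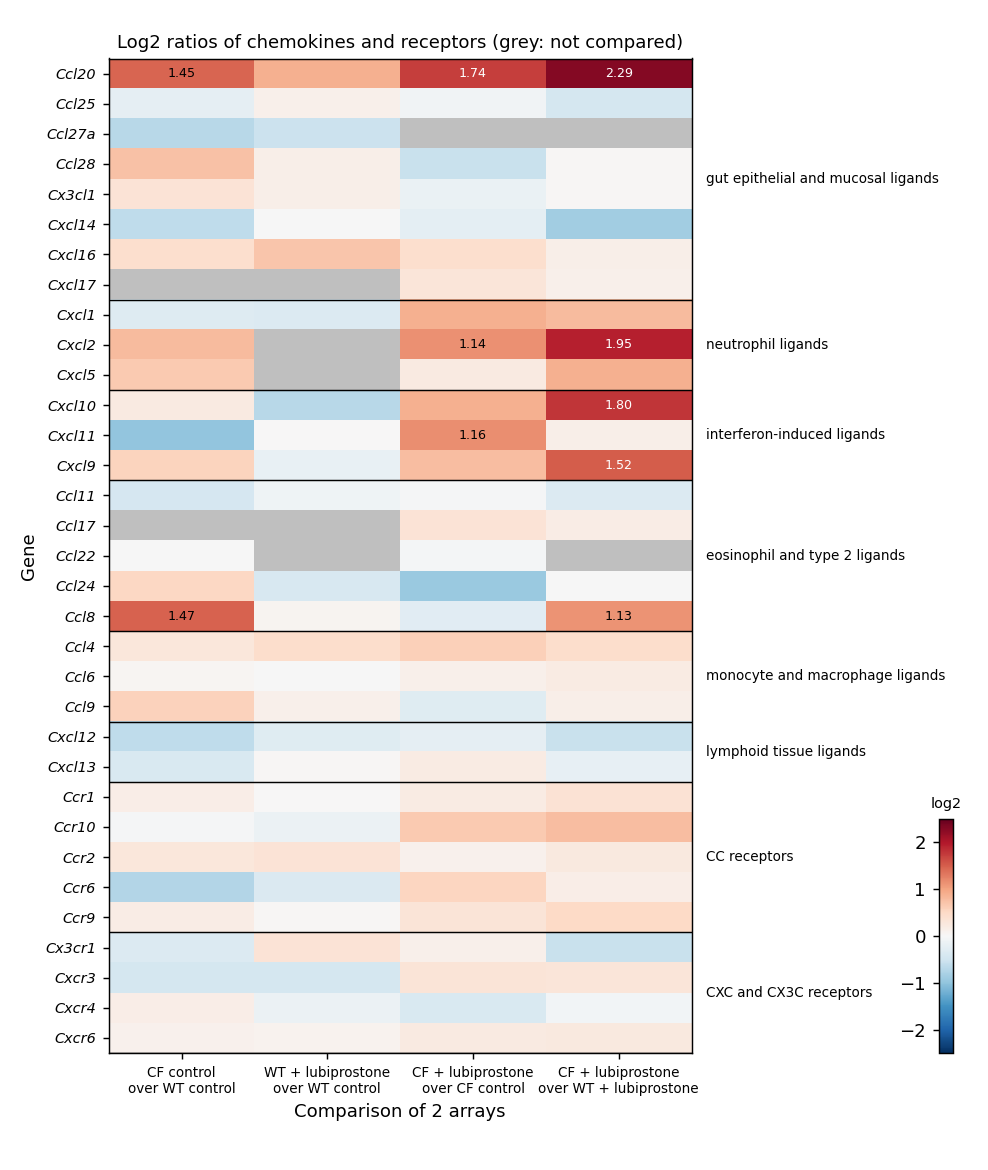
Log2 ratios (colour, red for above 0 and blue for below) of the 33 chemokine and receptor genes, in rows by role, in the 4 comparisons, in columns, with dim signals set to the array median, pairs not compared in grey and values printed where a gene is at least 2-fold apart. The printed values are all positive and lie in the rows of Ccl20, Cxcl2, Cxcl9, Cxcl10, Cxcl11 and Ccl8.

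Among the epithelial and mucosal ligands, Ccl20 was the only one past 2-fold. Ccl25, the ligand of Ccr9 that the small intestinal epithelium makes steadily, had 15556, 16833, 10524 and 11052 on its bright probe set, both CF pools below both WT pools. A second probe set of Ccl25 had 178, 197, 195 and 165 and did not show that order. Averaged over both, CF was 1.16-fold below WT between the untreated pools and 1.35-fold below it between the treated pools, and the SD between probe sets in the former was 0.49 on the log2 scale. For comparison, the median SD between probe sets of a gene, over all genes with several, was 0.21 in that comparison, 0.17 in the WT lubiprostone comparison, 0.22 in the CF lubiprostone comparison and 0.20 between the treated pools.

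Ccl28, which attracts IgA plasma cells through Ccr10, had 959, 858, 1484 and 1498 on its bright probe set. There both CF pools were above both WT pools. Its other probe sets had 168, 218, 236 and 122, and 165, 189, 342 and 203, both highest in CF control. The latter also had both CF pools above both WT pools, and the former did not. Averaged over the 3, CF exceeded WT by 1.65-fold between the untreated pools and by 1.02-fold between the treated pools, with an SD between probe sets of 0.82 on the log2 scale in the latter. Markers of plasma cells (Jchain, Mzb1, Xbp1, Derl3 and Sdc1) reached the median on all arrays, and their summed signal was 35900, 38487, 45845 and 54709, higher in the CF pools. Jchain and Xbp1 made up most of the sum. On its brightest probe set Sdc1 had 1920, 2451, 1885 and 2218, lower in CF in both comparisons, and Derl3 was lower in CF between the untreated pools. Averaged over probe sets, 4 of the 5 markers were higher in CF between the untreated pools and 5 between the treated pools, as were 46.2% and 49.7% of all genes. Their part in the Ccl28 and Ccr10 values was not tested.

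Cx3cl1, a membrane-bound ligand of Cx3cr1, had 1172, 1490, 1977 and 1899 on its bright probe set and 517, 494, 491 and 405 on the next. The first was higher in both CF pools and the second was not. The other 2 probe sets of Cx3cl1 were dim. Cxcl16, the transmembrane ligand of Cxcr6, had 687, 1178, 902 and 1141, and 509, 769, 696 and 984 on its other probe set. WT control was lowest on both probe sets, and the ratios of WT + lubiprostone and of CF control to it, averaged over both, were 1.61 and 1.34. Cxcl14, an epithelial chemokine, had 697, 628, 400 (399.8) and 327, and 303, 331, 221 and 189.9, lower in both CF pools on both probe sets. Averaged over both, CF was below WT by 1.55-fold between the untreated pools and by 1.83-fold between the treated pools.

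Ccl27a, a skin chemokine, was above the median in WT control alone, at 177, and Cxcl17, a mucosal chemokine, in CF + lubiprostone alone, at 134.5.

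The neutrophil attractants lay close together on chromosome 5, where Cxcl5, Cxcl3, Cxcl15, Cxcl1 and Cxcl2 are neighbours within 1 Mb of the next. Of these 5 genes Cxcl1, Cxcl2 and Cxcl5 could be compared, and Cxcl3 and Cxcl15 were dim on all arrays. Cxcl5 had dim signals of 9.57 and 56.4 in the WT pools and 195 and 226 in the CF pools, which put CF above WT by at least 1.57-fold between the untreated pools and by at least 1.85-fold between the treated pools. Cxcl2 and Cxcl5 were thus above the median only in the CF pools. Cxcl3 was dim throughout at 12.5, 16.3, 46.6 and 76.8.

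Cxcl1 depended on the probe set. The probe set that is specific by its name had dim signals of 61.6 and 16.5 in the WT pools, then 121 and 319 in the CF pools. The other 2, whose names mark probes shared with other transcripts, had 432, 385, 320 (319.8) and 440.1, and 403, 283, 285 and 491. On these the untreated CF pool was below the untreated WT pool. Averaged over the 3, lubiprostone exceeded control by 1.84-fold between the CF pools, with an SD between probe sets of 0.47 on the log2 scale, and CF exceeded WT by at least 1.73-fold between the treated pools, with an SD of 0.59. Cxcr2, their receptor, was dim on all arrays, between 13.6 and 16.1.

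Markers of neutrophils moved in part with these ligands. Of 4 marker genes with a probe set of their own, 0 reached the median in either WT pool, 3 in CF control and 2 in CF + lubiprostone, and their summed signal was 167, 215, 819 and 788. S100a8, a subunit of the neutrophil protein calprotectin, had dim signals of 71.9 and 51.4 in the WT pools and 322 and 362 in the CF pools. S100a9, its partner, had dim signals of 8.60 and 5.14, then 225.5 and 249.5. Csf3r, a receptor of granulocytes, was above the median only in CF control, at 193, and Mpo, an enzyme of their granules, was dim on all arrays. Their part in the neutrophil ligand values was not tested. Between the CF pools S100a8 was 1.12-fold and S100a9 1.11-fold higher with lubiprostone, while Cxcl2 was 2.20-fold higher.

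Promoter sequence was printed for Ccl20, Cxcl1, Cxcl2 and Cxcl10, because their promoters hold short motifs of inducible genes. Ccl20, Cxcl2 and Cxcl10 were past 2-fold in a comparison, and Cxcl1 was not. The sequences are those of RefSeq on GRCm38.p6, read 5′ to 3′ on the strand of the gene. The first 3 end at the base before the start of the transcript, and capitals mark each match to GGGNNTTTC on either strand, letters taken from the site of the factor NF-kappaB. Ccl20 covers chr1:83116636-83116765 on the plus strand, Cxcl1 chr5:90891115-90891244 on the plus strand and Cxcl2 chr5:90903769-90903898 on the plus strand.
Ccl20: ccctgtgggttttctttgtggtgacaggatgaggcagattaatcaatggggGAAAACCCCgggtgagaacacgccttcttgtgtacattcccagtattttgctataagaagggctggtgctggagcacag
Cxcl1: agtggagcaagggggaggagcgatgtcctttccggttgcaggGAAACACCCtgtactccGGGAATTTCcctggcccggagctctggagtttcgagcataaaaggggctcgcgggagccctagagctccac
Cxcl2: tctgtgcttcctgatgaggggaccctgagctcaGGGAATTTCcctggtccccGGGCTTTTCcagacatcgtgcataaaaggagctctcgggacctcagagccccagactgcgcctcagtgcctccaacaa
Cxcl10 covers chr5:92348989-92349119 on the minus strand, bases 230 to 100 before the start, and capitals mark a match to GAAANNGAA, letters taken from the interferon-stimulated response element, searched on both strands.
Cxcl10: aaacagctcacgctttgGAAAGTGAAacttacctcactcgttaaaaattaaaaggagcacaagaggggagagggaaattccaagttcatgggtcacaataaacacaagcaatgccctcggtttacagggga

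Cxcl1 and Cxcl2 each held 2 matches to GGGNNTTTC, and both promoters held the letters GGGAATTTC, and Ccl20 held 1. Among all promoters of 250 bases before the start, 1223 of 32851 (3.72%) held a match, and among the 39 promoters found for 35 of the 47 genes 10 did, those of Ccl20, Ccl9, Ccr3, Cxcl1, Cxcl2, Cxcl3, Cxcl9, Cxcr2, Cxcr3 and Cxcr4. Of these genes Ccl20, Cxcl2 and Cxcl9 were past 2-fold in a comparison, and Ccr3, Cxcl3 and Cxcr2 were dim on every array. GAAANNGAA was held by 2342 promoters (7.13%), and here by those of Ccl1, Ccl3, Ccr2, Cxcl10, Cxcl14 and Cxcl9. Ccl8 and Cxcl11, also past 2-fold in a comparison, were not among the genes with a match to either. Other letters for either site were not searched, so a stretch without capitals may still hold such a site. The 2 motifs do not overlap in the printed stretches, and both were chosen after the ratios had been seen. A match describes letters and not binding.

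The interferon-induced ligands Cxcl9, Cxcl10 and Cxcl11 are neighbours on chromosome 5 as well. Between the CF pools all 3 were higher with lubiprostone, at 1.72-fold, 1.85-fold and at least 2.23-fold, and the median of their log2 ratios was 0.89. Against WT + lubiprostone the ratios were at least 2.86, 3.47 and 1.11. Between the untreated pools they did not move alike, with Cxcl9 1.48-fold and Cxcl10 1.16-fold higher and Cxcl11 at least 1.99-fold lower in CF. In WT mice given lubiprostone, Cxcl10 was 1.61-fold lower and Cxcl11 1.01-fold higher. Cxcl9 was at least 1.13-fold lower averaged over both probe sets but 1.06-fold higher on the brighter one.

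Cxcr3, their receptor on T cells and natural killer cells, had 262, 195, 192 and 241. Between the untreated pools it was 1.36-fold lower in CF, and between the CF pools 1.25-fold higher with lubiprostone. Of 5 T cell markers with a probe set of their own, 3 reached the median in each WT pool and 2 in each CF pool, and their summed signal was 971, 868, 464 and 622. The sum was lower in both CF pools, as Cxcl9 and Cxcl10 were not, but single markers differed: Cd3e was lowest in CF + lubiprostone, and Cd3d was about alike in both treated pools, at 199 in WT and 210.1 in CF. Their part in the Cxcr3 values was not tested.

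**Figure D4:**
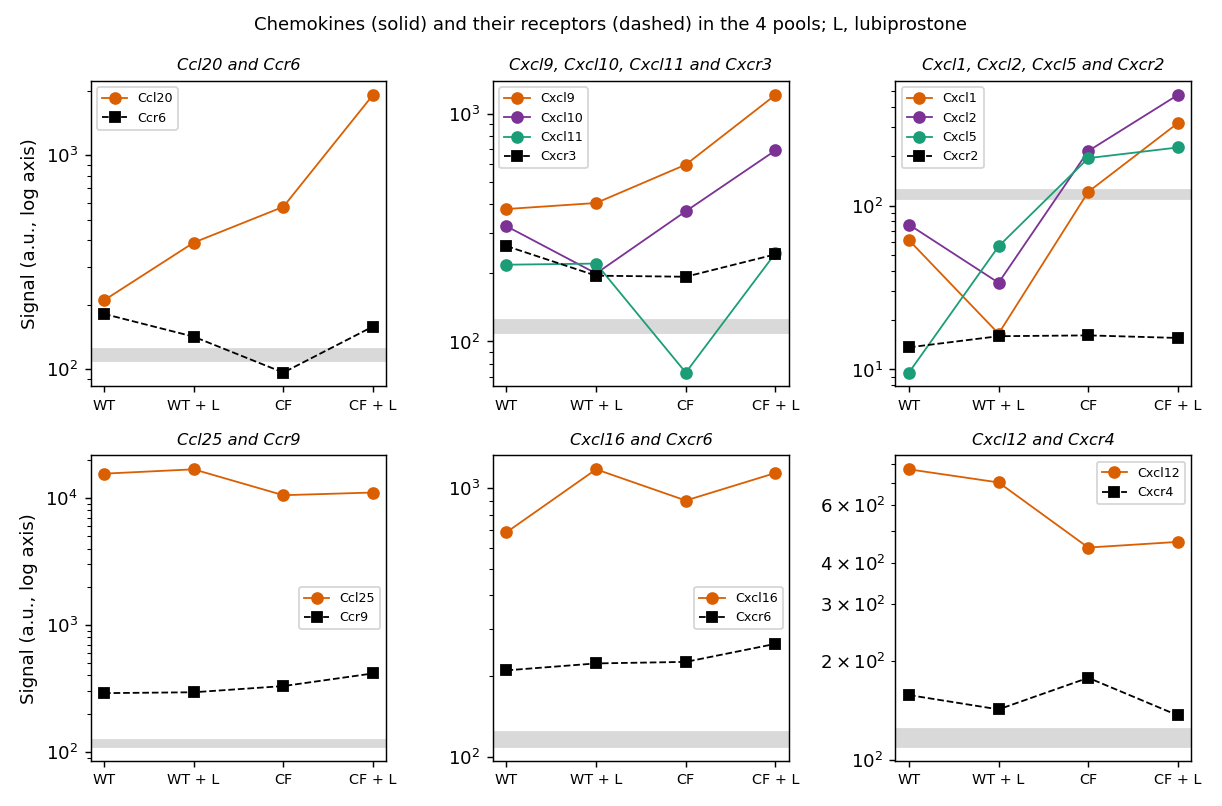
Signals (arbitrary units, log axes) of ligands (solid lines) and their receptors (dashed lines) on the 4 arrays, 1 point per pool on the brightest probe set, except Cxcl1, shown on its specific probe set, with the range of the array medians in grey. Ccl20 rises from 209.8 to 1913 across the pools as drawn while Ccr6 stays between 96.5 and 181, and the levels of different genes are not comparable.

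The ligands of eosinophils and of type 2 responses were split. Ccl8 was past 2-fold in both genotype comparisons. Ccl11, the eosinophil attractant also called eotaxin, had 858, 793, 639 and 626, lower in both CF pools, by 1.34-fold between the untreated ones. Ccl24, a second eotaxin, had 161, a dim 90.6, 231 and 121, so that CF was 1.44-fold above WT between the untreated pools and lubiprostone 1.91-fold below control between the CF pools. Ccr3, the receptor of both, was dim on all arrays, at 37.3 in WT control and between 4.45 and 5.51 in the others. Ccl17 and Ccl22, ligands of Ccr4, were each above the median in a single pool, Ccl17 in CF + lubiprostone at 139 and Ccl22 in CF control at 123.8.

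Of the 4 eosinophil markers, Siglecf alone reached the median, at 204, 256, 292 and 140.3, and was 2.08-fold lower with lubiprostone between the CF pools, while Prg2, Epx and Il5ra were dim on all arrays. Between the untreated pools, 4 eosinophil and type 2 ligands were compared: Ccl8 and Ccl24 were higher in CF, Ccl11 was lower and Ccl22 was level. Of the mast cell markers 4 of 5 were higher in CF there, as were 46.2% of all genes, and 1, Kit, was lower, at 561 and 473. The median was reached by 5 of 5 in CF control and 3 of 5 in WT control. Their summed signal was 1063, 773, 10383 and 1164, so that it was lower in CF + lubiprostone, where Ccl24 was 1.91-fold and Ccl8 1.21-fold below CF control. The mast cell proteases Mcpt1 and Mcpt2 had 143, a dim 74.2, 5798 and 376, and 231, 140.4, 3270 and 297, and Cpa3, another protease, was above the median only in the CF pools. Their part in these values was not tested.

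Among monocyte and macrophage ligands, 3 of 7 could be compared and none was 2-fold apart. Ccl6, a myeloid ligand of Ccr1, had 5057, 4472, 4805 and 4903, and 2223, 2485, 2510 and 2973 on its other probe set, and its ratios averaged over both lay between 0.99 and 1.15. Ccl9, a ligand of Ccr1 that draws dendritic cells, had 1073, 1052, 1671 and 1323, and 494, 602, 703 and 591. It was highest in CF control on both probe sets, 1.49-fold above WT control on average. Ccl4, an activation-induced ligand, was dim in WT control at 119.8 and had 169, 151 and 229 in the other pools. Ccl2, Ccl3, Ccl7 and Ccl12 were dim on all arrays, between 10.8 and 103.6. The 6 macrophage and monocyte markers all reached the median on every array, with a summed signal of 15705, 15603, 13275 and 13848. Cd14, the receptor for bacterial lipopolysaccharide, was 2.36-fold higher in CF between the treated pools, at 855 against 363, and 1.63% of all genes were at least 2-fold higher there. It was not typical of the 6 markers, of which 2 were higher and 4 lower in CF in that comparison, with a median log2 ratio of -0.19.

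Of the ligands of lymphoid tissue, Cxcl12 and Cxcl13 had probe sets of their own, and both were lower in CF when these were averaged. Cxcl12, which stromal cells make for cells with Cxcr4, had 773, 705, 446 and 464, and 252, 180.1, 179.5 and 125 on another probe set, and its remaining probe set was dim. On average CF was below WT by 1.56-fold between the untreated pools and by 1.48-fold between the treated pools, so that neither ratio passed 2-fold. Cxcl13, which guides B cells to follicles through Cxcr5, had 431, 358, 264 and 349, and 339, 427, 330.5 and 329, on average 1.29-fold and 1.15-fold lower in the same comparisons. In each of them 1 probe set was nearly level, at a ratio of 0.98, and the SD between probe sets was 0.47 and 0.24 on the log2 scale. Cxcr4 had 158, 143, 178 and 137, with no order by genotype, and Cxcr5 was dim at 52.9 to 75.4. B cell markers were lower as well, with 3 of 5 at the median in each WT pool and 2 of 5 in each CF pool, and a summed signal of 974, 845, 567 and 576. Their part in the Cxcl12 and Cxcl13 values was not tested.

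Probe sets shared by near-identical genes added the remaining lymphoid ligands. The probe set for the copies of Ccl21, which draws cells with Ccr7, had 615, 431, 732 and 648, so that CF was above WT by 1.19-fold between the untreated pools and by 1.5-fold between the treated pools. The probe set for Ccl19 and its copies, also ligands of Ccr7, was above the median in WT control alone, at 189, and had dim signals of 114.5, 99.6 and 17.3 in the others. The copies of Ccl27 had 131, 141, 138 and 158 on one probe set and dim signals on the other. Ccr7 was dim on all arrays, at 31.9 to 46.8.

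No receptor passed 2-fold with dim signals at the median. With signals as measured 1 did, Ccr10, which was 2.41-fold higher in CF between the treated pools. Ccr6, the receptor of Ccl20 on B cells and some T cells, had 181, 142, a dim 96.5 and 158, lowest in CF control where it was at least 1.66-fold below WT control. Ccl20 was not lowest there. Ccr9, the gut homing receptor of Ccl25, had 290.4, 295, 330 and 415 on a probe set whose name marks shared probes, and its other 4 probe sets were dim. Between the treated pools it was 1.41-fold higher in CF, where Ccl25 was 1.35-fold lower. Ccr10, the receptor of Ccl28 on plasma cells, had 135, a dim 86.5, 133 and 209, and was 1.57-fold higher with lubiprostone between the CF pools.

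Ccr1, shared by Ccl6 and Ccl9, had 276, 278, 308 and 357. Ccr2, the receptor of monocytes, was dim in WT control at 119.8 and had 156, 174 and 203 in the other pools. Of the 5 CC receptors compared, 5 were higher with lubiprostone between the CF pools, where their log2 ratios had a median of 0.33 and Ccr2 turned below 1 when the arrays were given a common median, and 5 were higher in CF between the treated pools, with a median of 0.36. These comparisons share the CF + lubiprostone array. All genes had medians of 0.02 and -0.00 in these, and 52.9% and 49.7% of them were above 1. Of the 4 CXC and CX3C receptors compared, 3 were higher with lubiprostone between the CF pools. Between the treated pools 2 of these 4 were higher in CF and 2, Cx3cr1 and Cxcr4, lower. Cx3cr1, a receptor of resident macrophages, had 309, 389.6, 243 and 265, lower in both CF pools, where the bright probe set of its ligand Cx3cl1 was higher. Cxcr6, the receptor of Cxcl16 on lymphocytes, had 211, 224, 227 and 264. Ccr8, the receptor of Ccl8, was dim on all arrays, between 2.73 and 7.04, as were Ccr4, Ccr7 and Ccr1l1.

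Genes around the pathway were taken from lists by role. Of 10 atypical receptors and other family members, 7 could be compared between the treated pools and none was 2-fold apart. Rarres2, which encodes the attractant chemerin, and Pf4, a platelet chemokine, were the brightest, at 602, 656, 646 and 649, and 541, 458, 627 and 427. Ccrl2, which binds chemerin without signalling, had a dim 108 in WT control and then 163, 178 and 287.5. Of 18 genes of receptor signalling and desensitization, 17 or 18 were compared and 1 was 2-fold apart, lower between the treated pools as were 1.72% of all genes. It was Tpst1, an enzyme that sulfates tyrosines of chemokine receptors. Its signals were 261, 287, 208 and a dim 80.1, the last at least 2.40-fold lower in CF between the treated pools. The G protein subunits Gnb1 and Gnai3 were bright at 7274 to 9692 and 6675 to 7771 and differed by less than 2-fold.

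Of 11 adhesion and homing genes, 8 to 10 were compared. Icam1, which leukocytes grip on endothelium, had 243, 245, 291 and 508, and was 2.07-fold higher in CF between the treated pools. Madcam1, the vascular address of gut lymphocytes, had 226, 169, 234 and a dim 114.6, at least 1.96-fold lower with lubiprostone between the CF pools. Itgae, an integrin chain of lymphocytes in the epithelium, had 667, 646, 401 and 416, lower in both CF pools, and Itgb2, an integrin chain of most leukocytes, had 626, 526, 581 and 488.

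Of 9 feedback targets of NF-kappaB, a factor that also drives Ccl20 and Cxcl2, all 9 were compared in each comparison and 2 were past 2-fold, both higher in CF between the treated pools, as were 1.63% of all genes. Nfkbia, the inhibitor of NF-kappaB, had 10713, 11994, 16088 and 22470.0 on its brightest probe set, and averaged over its probe sets it was 2.22-fold higher in CF between the treated pools. Tnfaip3, an enzyme that ends its signalling, had 1073, 879, 1615 and 2265 on its brightest probe set, and on average it was 3.03-fold higher in that comparison. Nfkbiz, a further inducible member, had 3225, 3376, 6568 and 6788. The others did not share 1 order: Relb had 802, 899, 513 and 687, lower in both CF pools, Nfkbie had 280.4, 242, 186 and 285, and Nfkb2 and Bcl3 were highest in CF control. The median log2 ratios of the 9 were 0.35 for CF over WT between the untreated pools and 0.42 between the treated pools, and for lubiprostone over control 0.09 in WT and 0.36 in CF.

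Markers of the pancreas differed between the pools. Cela1 and Cpa1, its digestive enzymes, had a summed signal of 8628, 946, 7599 and 2158, lower in both treated pools. Between the CF pools Ccl20 and Cxcl2 were past 2-fold higher with lubiprostone where these markers were lower. Their part in these values was not tested. Of the other cell types, Lyve1 of lymphatic vessels was 2.01-fold higher with lubiprostone between the CF pools, averaged over its probe sets, with 391 and 761 on the brightest. Among all genes 1.27% were at least 2-fold higher there. Pdpn, the other lymphatic marker compared, went the other way, at 925 and 731 on its brightest probe set, and Prox1 was dim on all arrays. The summed signal of 4 markers of blood vessels was 915, 868, 1200.4 and 1153, and that of 4 markers of dendritic cells 1030.2, 885, 749 and 717. Adipoq of fat cells was above the median only in WT control, at 173, and had dim signals of 15.3, 99.5 and 1.56 in the other pools. It was thus lower in each treated pool than in the untreated pool of its genotype. Lep, another marker of fat cells, was dim on all arrays and did not show that order.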

How the data were processed

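Signals of 45101 probe sets on 4 Affymetrix mouse arrays, 1 per pool, were used as deposited. The authors made these intensities in the GCOS software, and the submitters' processing notes name GCOS and MAS5, whose versions are not given in the sources used here. The deposited table holds linear intensities with no detection calls, and its mean, trimmed by 2% at each end, was 500.0 on every array. Of the probe sets, 34958 are listed for 1 gene symbol, 932 for several and 9211 for none, and symbols were brought up to date through RefSeq for 34754. All 75 chemokine and receptor probe sets were matched. Ccl5 was left out by the rule.

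A probe set entered a comparison when it reached the median on 1 of the 2 arrays. Dim signals were set to the median and log2 ratios were averaged over the probe sets of a gene. Genes were counted at 2-fold and at 3-fold. Described in full are the genes at least 2-fold apart in any of the 4 comparisons, the 10 with the highest mean signal, and their receptors or ligands, and of the pathway and marker lists the members at least 2-fold apart and the brightest 2, of which some are given within summed signals only. Other names were chosen after their values were seen. The genes, lists and comparisons were chosen with earlier results of these data known. The alternatives were 2 other scalings of the arrays, signals as measured, a filter at the 75th percentile or none, and the brightest probe set of each gene. The steps were tested on simulated data. Python 3.11 was used with numpy 2.4.6, pandas 2.3.3 and matplotlib 3.10.9.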

Additional observations from a re-analysis of the deposited data

Results flagged for a closer look

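Cxcl10, the interferon-induced ligand of Cxcr3, had opposite ratios for lubiprostone over control in the 2 genotypes. In WT mice it was 1.61-fold lower with lubiprostone, a log2 ratio of -0.69, and in CF mice 1.85-fold higher, a log2 ratio of 0.89. It was picked out because both ratios passed 1.5-fold in opposite directions. The signals behind them were 321 and 199 in the WT pools and 373 and 690.5 in the CF pools. The difference between the genotypes was not tested, since each group has 1 array.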

How the results depend on the processing

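No paired analysis was possible because each group has 1 array, and for the same reason no replicate could be left out. In CF control over WT control, the count of genes at least 2-fold higher (2) became 4 with signals as measured, 10 with no filter and 0 with the filter at the 75th percentile, and the count lower (0) became 2 with signals as measured and 4 with no filter. In WT + lubiprostone over WT control, both counts of 0 became 4 higher and 8 lower with no filter. In CF + lubiprostone over CF control, the count lower (0) became 1, Ccl24, with a common median for all arrays and with quantile normalization, and 3 with no filter. In CF + lubiprostone over WT + lubiprostone, the count higher (5) became 8 with signals as measured, 13 with no filter and 2, Ccl20 and Cxcl9, with the filter at the 75th percentile, the count lower (0) became 3 with no filter, and the median log2 ratio (0.19) became 0.42 with no filter. The genes added with no filter include ones dim on both arrays. Of 48 recomputed counts 34 stayed within 1.5 times of the first. Of 24 medians 23, and of 125 log2 ratios of single genes 106, moved by less than the median SD between probe sets of a gene. None past 2-fold changed direction. Below 2-fold Cxcl9 in WT + lubiprostone over WT control went from -0.18 to 0.09 with the brightest probe set, and the median there went from 0.01 to -0.08 with no filter and to -0.01 with the 75th percentile filter and with the brightest probe set. Ccl20 in CF + lubiprostone over CF control ranged from 3.05 to 3.33, Ccl8 in CF control over WT control from 1.02 to 3.13, with the 75th percentile filter lowest, Cxcl10 in CF + lubiprostone over WT + lubiprostone from 1.46 to 3.56 and Cxcl2 there from 3.87 to 14.0. Scaling to the same median shifted the median of all genes by 0.18 on the log2 scale for CF control over WT control and by -0.13 for CF + lubiprostone over CF control. Under 1 or both scalings the direction of Ccl22 and Ccr10 turned in the first of these, of Ccr2 and Cx3cr1 in the second, of Ccl6 and Cxcl14 in WT + lubiprostone over WT control and of Ccl24 between the treated pools. Counting probe sets of several chemokine symbols as further features gave no value, since each of the 4 also lists genes outside the rule. The cause of these shifts was not tested. The limits are 1 pool and 1 array per group and signals near the background.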
